A study of Mus musculus with 12 samples.

Results

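The genes described here encode 10 members of the BCL2 family, the proteins that control mitochondrial apoptosis. They were chosen by name, with earlier results of these data known. They are the guardians Bcl2, Bcl2l1 and Mcl1, the effectors Bax and Bak1, and the BH3-only genes Bbc3, Pmaip1, Bcl2l11, Bid and Bik. Each matched 1 Ensembl identifier among the 55385 in the tables, and all 10 were among the 15283 genes that passed the filter on low counts. RNA sequencing covered 12 libraries of C57BL/6 mouse cells, 4 of each of 3 groups: primary cultured normal endometrium cells (titled B6, called normal here), the endometrial cancer line mECC (titled DM) and the endometrial cancer line HPmECC (titled WT). Per the series' design text, Myc is overexpressed in part of the cancer lines; which of them is not stated. The labels give no genotype, allele, age, passage or treatment for any group. Whether a group's libraries derive from different cultures or animals is not stated, so p-values here reflect library-to-library spread alone, and that spread may be technical.

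As background, guardian proteins such as BCL2, BCL-XL (from Bcl2l1) and MCL1 hold the effectors BAX and BAK in check on the outer mitochondrial membrane. BH3-only proteins sense stress and either occupy the guardians or activate the effectors directly, after which BAX and BAK open the membrane, cytochrome c leaves and caspases are activated. Bbc3 (PUMA), Pmaip1 (NOXA) and Bax are textbook targets of the transcription factor p53, and Myc is known to sensitise cells to this route. In the endometrium, BCL2 is known for its cyclic, hormone-dependent presence in the glandular epithelium.

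Libraries held 16332060 to 24202564 counts in the normal group, 21755275 to 25821106 in mECC and 18402202 to 26873582 in HPmECC. Trp53, which encodes p53, stood at 141 ± 5.91 CPM in normal cells, 2.14 ± 0.095 for mECC and 1.47 ± 0.26 for HPmECC, where CPM are counts scaled to a common library size with TMM factors and errors are SD over 4 libraries throughout. Myc stood at 111 ± 5.05, 59.4 ± 2.09 and 266 ± 24.00 CPM in the same order. The 10 epithelial markers summed to 9070 to 9400 CPM in normal libraries, 1600 to 1640 in mECC and 310 to 325 in HPmECC. In HPmECC the epithelial markers Epcam and Cdh1 were near 0, at 0.34 ± 0.16 and 0.94 ± 0.25 CPM. All 10 were lower in HPmECC than in normal cells, yet Krt8, Krt18 and Krt19 remained at 124 ± 9.20, 61.0 ± 6.85 and 96.4 ± 10.52 CPM. Krt19 in mECC, at 330 ± 6.58 CPM, overlapped with normal cells (328 ± 5.81). The normal culture also held transcripts of other cell types: 10 leukocyte markers summed to 325 to 415 CPM, 6 smooth muscle markers to 2280 to 2750, 6 endothelial markers to 115 to 128 and 5 mesothelial markers to 444 to 486. In mECC these 4 lists summed to 55.6 to 60.8, 51.4 to 53.7, 5.06 to 5.69 and 36.6 to 42.1 CPM, and in HPmECC to 29.2 to 32.4, 187 to 249, 16.2 to 19.8 and 8.99 to 11.1. Markers at 0 counts were Tyrobp, Cd52, Wt1, Upk1b and Thy1 in mECC and Ptprc, Adgre1, Tyrobp, Cdh5, Tek, Upk3b, Upk1b and Lrrn4 in HPmECC. Other markers of these lists remained, such as the leukocyte marker Cd14 at 45.4 ± 1.71 CPM in mECC. The endothelial marker Flt1, at 11.7 ± 1.29 CPM in HPmECC, was above its 7.12 ± 1.04 in normal cells, while 4 of 5 tested endothelial markers were lower there. The 6 B and T cell markers together stayed at or under 0.275 CPM in each library. The 10 mesenchymal markers summed to 2180 to 2720, 8450 to 9330 and 9100 to 9790 CPM in normal, mECC and HPmECC libraries, with 6 of them higher and 4 lower than in normal cells in each line (Col1a2, Dcn, Lum and Thy1 lower). These shifts accompany every difference from normal cells given below, and their part in those differences was not tested. In bulk RNA, fewer cells of a type and less RNA per cell cannot be told apart.

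Per transcript length, the normal culture was led by Bax, Pmaip1 and Bcl2l1, and both cancer lines were led by Bak1, Bax and Mcl1. In normal cells Bax stood at 271 ± 7.32 TPM, Pmaip1 at 233 ± 7.0 and Bcl2l1 at 231 ± 6.90, where TPM is a length-scaled abundance that allows genes to be ordered. Pmaip1 and Bcl2l1 overlapped between libraries in that order, and so did the neighbours Bak1 (117 ± 10.68 TPM) with Mcl1 (101 ± 8.39) and Bik (10.5 ± 0.89) with Bbc3 (8.33 ± 1.44). Bid (38.7 ± 0.98 TPM), Bcl2l11 (19.3 ± 1.97) and Bcl2 (3.42 ± 0.10) did not overlap with their neighbours. Bcl2, the founding member of the family, was thus the lowest of the 10 in normal cells.

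In mECC the order of TPM levels ran from Bak1 (190.5 ± 7.39) over Bax (132 ± 6.25), Mcl1 (75.7 ± 2.55), Bid (58.9 ± 1.29) and Bcl2l1 (50.4 ± 2.56) to Pmaip1 (17.8 ± 1.72), Bcl2l11 (13.99 ± 1.17), Bbc3 (8.24 ± 1.56), Bcl2 (3.72 ± 0.17) and Bik (0.80 ± 0.33). Only Pmaip1 and Bcl2l11 overlapped there. HPmECC had the same first 5 genes in the same order, Bak1 at 149.9 ± 3.14 TPM, Bax at 137.5 ± 3.04, Mcl1 at 69.7 ± 3.33, Bid at 48.8 ± 0.87 and Bcl2l1 at 32.0 ± 1.19. Bbc3 followed at 13.9 ± 2.09 TPM, above Pmaip1 (8.05 ± 1.09) and Bcl2l11 (6.95 ± 1.03), which overlapped with each other, and above Bcl2 (2.27 ± 0.24) and Bik (1.36 ± 0.15). Among the TPM of all genes tested, Pmaip1 was at percentile 95.7 in normal cells, 53 for mECC and 39.2 for HPmECC, and Bcl2l1 at percentile 95.6, 77.2 and 67.7. Bak1 was between percentiles 90.8 and 94.7 in each group.

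**Figure D1:**
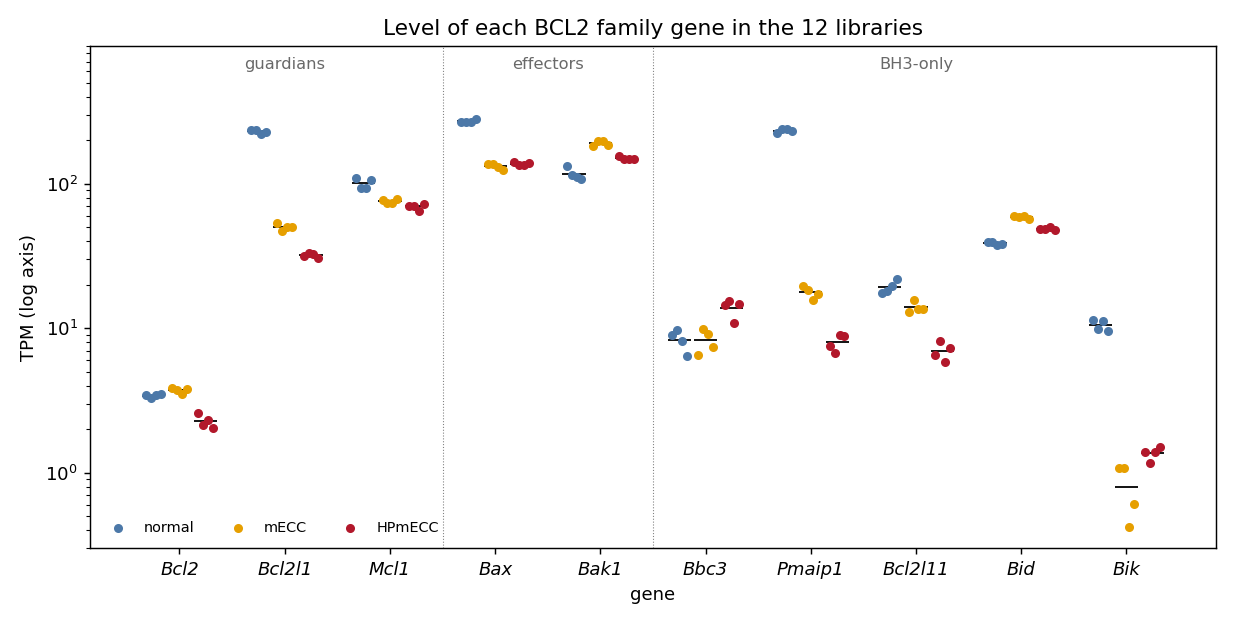
TPM of the 10 genes (log axis) in each of the 12 libraries, grouped by role, with 1 point per library and a bar at the mean of 4. Pmaip1 and Bcl2l1 sit at 233 and 231 TPM in normal cells and at most at 53.7 TPM in the libraries of both cancer lines, while Bak1 and Bid are higher in the cancer lines.

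The count-based tests, which used edgeR's quasi-likelihood test over all genes, called 9 of the 10 members in mECC against normal cells, where 86.3% of all genes tested were called. Of the members 2 were higher (42.1% of all genes) and 7 lower (44.2%). In HPmECC against normal cells all 10 were called, where 86.4% of all genes were called, 3 of them higher (43% of all genes) and 7 lower (43.3%). HPmECC against mECC also gave 10 called members, where 68.3% of all genes were called, 3 higher (33.8% of all genes) and 7 lower (34.5%). In all 3 comparisons 9 of the 10 were called, against 53.9% of all genes. The CPM of the groups did not overlap for 9 members in mECC against normal cells (82.3% of all genes), 10 in HPmECC against normal cells (81.7%) and 10 in HPmECC against mECC (63%). Against normal cells the total called and the number without overlap were near these backgrounds. The split by direction held more lower and fewer higher members than that of all genes. With 10 members that is a difference of few genes, and it was not tested. Changes of at least 2-fold were fewer, and all of them were lower. They numbered 4 in mECC against normal cells (41.2% of all genes in either direction, 18.4% higher and 22.8% lower), 5 in HPmECC against normal cells (41.5%, 18.5% and 23%) and 2 in HPmECC against mECC (16.1%, 6.73% and 9.4%). Some members lay close to 2-fold: Bax in HPmECC against normal cells was at log2 -0.98 with library totals and on log2(TPM + 1), and Bik in HPmECC against mECC was at 1.02 without mECC replicate 1 and 1.06 without mECC replicate 2. The median log2 fold change of the 10 members was -0.55, -0.97 and -0.26 in these 3 comparisons, against medians over all genes of -0.02, 0.00 and 0.00. Both comparisons with normal cells share the normal libraries. With library totals in place of TMM factors the median of all genes moved to 0.22 in mECC and 0.20 in HPmECC against normal cells. The share of called genes that were higher in mECC moved from 48.8% to 59.1%. The members' CPM and edgeR fold changes below are on the TMM scale. Their TPM levels and sums are on the deposited fixed-sum scale without TMM factors, so changes between groups differ in size between the 2 scales.

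**Figure D2:**
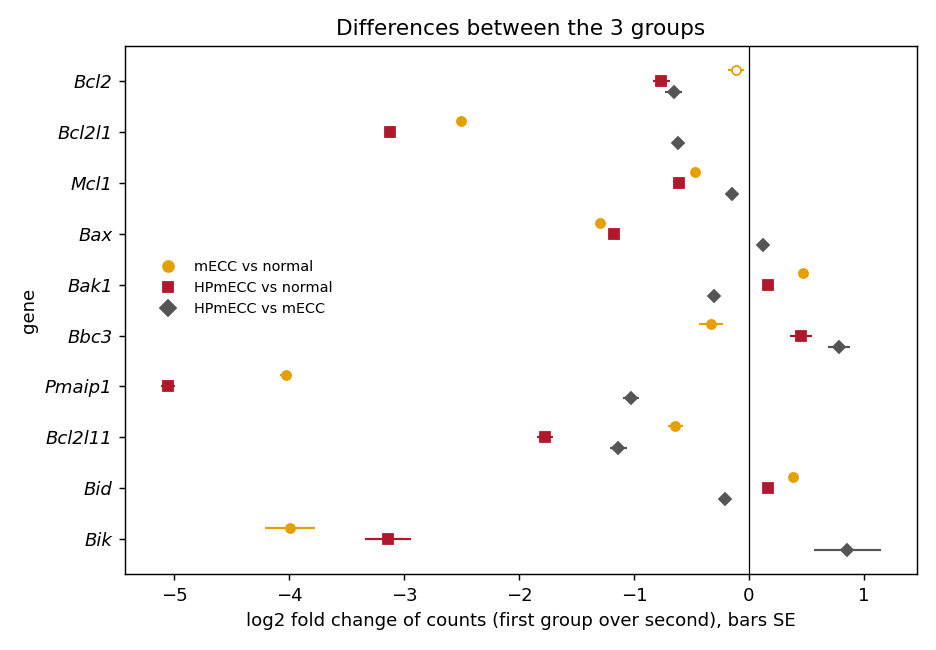
Log2 fold change of counts for the 10 members in the 3 comparisons, with SE as bars; filled symbols passed the edgeR threshold and the open one (Bcl2 in mECC against normal) did not. Pmaip1, Bik and Bcl2l1 have the lowest values against normal cells, and Bak1 and Bid lie to the right of 0 in both lines.

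Among the guardians, Bcl2l1 fell steeply in both lines, Mcl1 fell little, and Bcl2 was lower only in the comparisons that include HPmECC. Bcl2l1 (ENSMUSG00000007659) lies on chromosome 2 at 152780668 to 152831728 of GRCm38, on the minus strand. Its normal libraries held 340, 339, 325 and 324 CPM, those of mECC 59.7, 55.1, 58.0 and 61.2, and those of HPmECC 38.1, 39.5, 36.9 and 38.1. The 3 groups did not overlap, with normal cells highest and HPmECC lowest. The fall was 5.67-fold in mECC (log2 -2.50 ± 0.03 SE, edgeR adjusted p = 1.56e-21) and 8.69-fold in HPmECC (log2 -3.12 ± 0.04 SE, edgeR adjusted p = 1.03e-22). HPmECC lay 1.53-fold below mECC (log2 -0.62 ± 0.04 SE, edgeR adjusted p = 5.17e-11).

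Mcl1 (ENSMUSG00000038612, chromosome 3 at 95658788 to 95663176) encodes a short-lived guardian that NOXA is known to bind. It stood at 176, 173, 165 and 176 CPM in normal libraries, 125, 124, 121 and 130 in mECC, and 114, 115, 106 and 117 in HPmECC. The groups did not overlap, yet the steps were small: 1.38-fold lower in mECC and 1.53-fold lower in HPmECC than in normal cells (log2 -0.47 ± 0.03 SE and -0.61 ± 0.03 SE; edgeR adjusted p = 1.47e-10 and 2.54e-12). HPmECC was 1.10-fold below mECC (log2 -0.14 ± 0.03 SE, edgeR adjusted p = 9.00e-04), a call that limma on log2(TPM + 1) did not make (adjusted p = 0.08).

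Bcl2 (ENSMUSG00000057329, chromosome 1 at 106538178 to 106714274) was at 16, 15.4, 16.5 and 16.8 CPM in normal libraries and at 15.8, 15.0, 13.9 and 15.4 CPM in mECC, so these groups overlapped. The log2 fold change of -0.11 (SE 0.07) did not pass (edgeR adjusted p = 0.152), and its sign turned on the scaling: it was 0.13 with library totals and 0.10 from TPM. HPmECC libraries held 10.8, 9.08, 9.71 and 8.69 CPM, all below those of the other 8. They were 1.57-fold below mECC and 1.70-fold below normal cells (log2 -0.65 ± 0.07 SE and -0.76 ± 0.07 SE; edgeR adjusted p = 1.90e-07 and 1.38e-08).

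The guardians' make-up changed with these steps. Bcl2l1 supplied 68.9% ± 1.66 of the summed guardian TPM in normal cells, 38.8% ± 1.01 for mECC and 30.8% ± 1.53 for HPmECC, while Mcl1 supplied 30.1% ± 1.65, 58.3% ± 0.96 and 67.0% ± 1.66. In normal cells there were 2.30 ± 0.19 Bcl2l1 transcripts per Mcl1 transcript, against 0.67 ± 0.03 in mECC and 0.46 ± 0.03 in HPmECC. Mcl1 led in each cancer library and Bcl2l1 in each normal one. The 3 guardians together went from 335 ± 12.4 TPM in normal cells to 129.8 ± 4.59 in mECC and 104.0 ± 2.83 in HPmECC.

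The effectors moved apart: Bax was lower and Bak1 higher in both cancer lines than in normal cells. Bax (ENSMUSG00000003873, chromosome 7 at 45461697 to 45466898, minus strand) held 130, 128, 129 and 137 CPM in normal libraries, 55.2, 55.0, 52.9 and 50.5 in mECC and 59.5, 56.0, 57.2 and 59.6 in HPmECC. Each cancer library was below each normal library. The fall was 2.45-fold in mECC (log2 -1.3 ± 0.04 SE, edgeR adjusted p = 7.02e-17) and 2.26-fold in HPmECC (log2 -1.18 ± 0.04 SE, edgeR adjusted p = 2.95e-16). HPmECC was 1.09-fold above mECC (log2 0.12 ± 0.04 SE, edgeR adjusted p = 0.00814), and this small step did not pass with library totals (0.08, adjusted p = 0.081) or on log2(TPM + 1) (0.06, adjusted p = 0.151).

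Bak1 (ENSMUSG00000057789, chromosome 17 at 27019810 to 27029009) held 126, 117, 120 and 115 CPM in normal libraries, 162, 168, 168 and 164 in mECC and 134, 132, 138 and 134 in HPmECC. It was thus highest in mECC, with no overlap between the groups. The rise over normal cells was 1.39-fold in mECC (log2 0.47 ± 0.03 SE, edgeR adjusted p = 2.63e-11) and 1.12-fold in HPmECC (log2 0.17 ± 0.03 SE, edgeR adjusted p = 4.10e-05), and HPmECC lay 1.23-fold below mECC (log2 -0.30 ± 0.03 SE, edgeR adjusted p = 3.96e-08). Bak1 shares exon bases with both annotated Ggnbp1 genes on the other strand, each of which had between 64 and 177 counts in a group, against 8808 to 16897 of Bak1.

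Bax supplied 69.9% ± 2.20 of the effector TPM in normal cells, 40.9% ± 1.41 for mECC and 47.8% ± 0.39 for HPmECC. The ratio of Bak1 to Bax TPM was 0.43 ± 0.05, 1.45 ± 0.08 and 1.09 ± 0.02. Summed effector TPM fell less than summed guardian TPM, from 388 ± 9.67 to 322.5 ± 10.2 and 287 ± 5.75, so that effector transcripts per guardian transcript stood at 1.16 ± 0.02 in normal cells, 2.49 ± 0.16 for mECC and 2.76 ± 0.08 for HPmECC. The lowest mECC library was at 2.35 and the highest normal library at 1.18. Bax per Bcl2l1 transcript was 1.18 ± 0.05, 2.62 ± 0.18 and 4.30 ± 0.25. Bax per Bcl2 transcript stood at 79.5 ± 2.05, 35.5 ± 2.01 and 61.1 ± 6.23, so it was lower in both lines than in normal cells, and, like Bax per Bcl2l1, higher in HPmECC than in mECC. These ratios are descriptions of transcript levels within a library and carry no test.

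**Figure D3:**
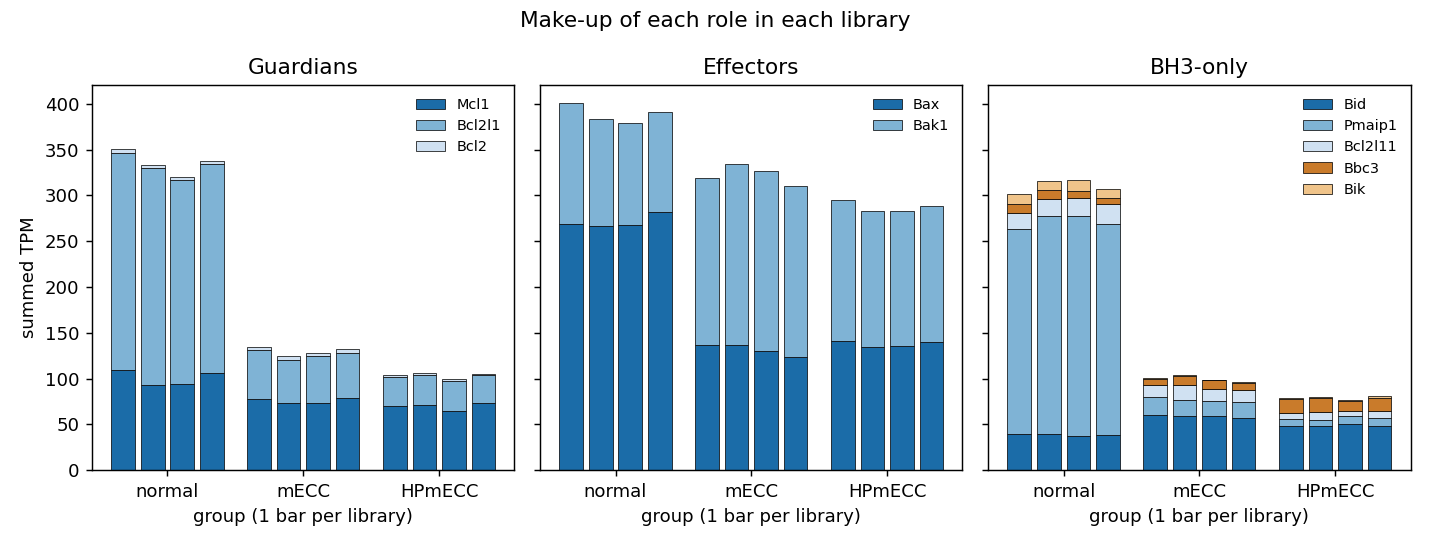
Summed TPM of guardians, effectors and BH3-only members in each library (1 bar per library, segments are genes, axis from 0). Guardian and BH3-only sums drop from 335 and 310 TPM in normal cells to 104 and 79.0 TPM in HPmECC, while effector sums drop from 388 to 287 TPM and change from mostly Bax to a nearly even mix.

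The promoters of Bax and of the guardians Bcl2l1 and Mcl1 are shown because these genes carry the changes in guardian and effector make-up, and because p53 and Myc transcripts differ between the groups. The RefSeq promoter table of GRCm38.p6 held 8 of the 10 members, with 13 start sites; each sequence below is the 250 bases before a start, 5′ to 3′ on the gene's strand. Capitals mark GC boxes (GGGCGG, both strands), E-boxes (CACGTG, the palindromic site bound by Myc), CCAAT boxes (CCAAT, both strands) and the p53 half-site.
Bax, chr7:45466899-45467148, minus strand: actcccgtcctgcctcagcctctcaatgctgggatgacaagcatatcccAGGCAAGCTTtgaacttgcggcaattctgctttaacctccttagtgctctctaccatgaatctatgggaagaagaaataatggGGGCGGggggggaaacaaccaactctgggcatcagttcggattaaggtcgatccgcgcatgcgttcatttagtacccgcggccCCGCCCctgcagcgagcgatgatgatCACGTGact
Bcl2l1, chr2:152831729-152831978, minus strand, the outermost of 3 starts: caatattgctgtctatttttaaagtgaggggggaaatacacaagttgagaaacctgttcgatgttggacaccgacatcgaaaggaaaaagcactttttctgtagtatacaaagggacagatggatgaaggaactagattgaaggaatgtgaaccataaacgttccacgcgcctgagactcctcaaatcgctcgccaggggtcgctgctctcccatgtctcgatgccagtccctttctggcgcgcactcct
Mcl1, chr3:95658471-95658720, plus strand: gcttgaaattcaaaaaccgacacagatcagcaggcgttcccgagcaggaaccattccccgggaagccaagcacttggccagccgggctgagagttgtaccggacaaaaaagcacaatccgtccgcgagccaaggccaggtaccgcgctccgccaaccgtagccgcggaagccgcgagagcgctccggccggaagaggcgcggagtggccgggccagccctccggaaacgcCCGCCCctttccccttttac

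The Bax window held 1 p53 half-site, from 201 to 192 bases before the start, and 1 E-box, from 9 to 4 bases before it, with GC boxes on either strand between them. Of the 13 windows of members, it was the only one with a p53 half-site, which 7.13% of all 32851 windows of that length held. An E-box occurred in 2 of the 13, that of Bax and 1 of the 3 of Bbc3, against 6.02% of all windows. GC boxes occurred in 9 of the 13, against 32.7% of all windows, among them each start of Bcl2, Bcl2l11, Bid and Bbc3. None of the 3 Bcl2l1 windows, nor that of Bak1, held any of these motifs, and the Mcl1 window held 1 GC box on the opposite strand. CCAAT boxes were in 3 of the 13, against 33.8% of all windows. TATA boxes (TATAAA, both strands) and CRE sites (TGACGTCA) were in 0 of the 13, against 12.4% and 1.55%. The windows with a GC box were from 54% (Bax) to 81.6% (1 of Bbc3) G and C, against a median of 52.4% over all windows. Of the 3 Bbc3 windows 2 overlap each other, so the 13 are not all separate. A match is a description of letters, not evidence of binding.

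Among the BH3-only members, Pmaip1 and Bik were far lower in both cancer lines, Bcl2l11 was lower in steps, Bid was higher, and Bbc3 was highest in HPmECC. Pmaip1, which encodes NOXA (ENSMUSG00000024521, chromosome 18 at 66458533 to 66465565), had the widest range of the 10 members. Its normal libraries held 392, 412, 405 and 389 CPM, mECC 25.6, 25.0, 22.8 and 24.9, and HPmECC 11.8, 10, 14 and 12.7. No groups overlapped. The fall was 16.3-fold in mECC (log2 -4.03 ± 0.05 SE, edgeR adjusted p = 1.06e-21) and 33.2-fold in HPmECC (log2 -5.06 ± 0.06 SE, edgeR adjusted p = 1.33e-22), and HPmECC lay 2.04-fold below mECC (log2 -1.03 ± 0.07 SE, edgeR adjusted p = 2.12e-10). There were 2.33 ± 0.26 Pmaip1 transcripts per transcript of its partner Mcl1 in normal cells, 0.24 ± 0.02 for mECC and 0.12 ± 0.02 for HPmECC.

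Bik (ENSMUSG00000016758, chromosome 15 at 83526862 to 83544634), whose product sits mainly at the endoplasmic reticulum, held 6.03, 5.04, 5.95 and 5.23 CPM in normal libraries. In mECC it held 0.47, 0.47, 0.18 and 0.26 CPM and in HPmECC 0.64, 0.54, 0.63 and 0.70, from 35 and 61 counts over the 4 libraries. The cancer libraries were all far below the normal ones, by 15.9-fold in mECC and 8.80-fold in HPmECC (log2 -3.99 ± 0.22 SE and -3.14 ± 0.20 SE; edgeR adjusted p = 2.51e-12 and 2.56e-11). The 1.81-fold difference between the lines (log2 0.85 ± 0.29 SE, edgeR adjusted p = 0.0145) did not pass without mECC replicate 3 (0.63, edgeR adjusted p = 0.0668).

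Bcl2l11, which encodes BIM (ENSMUSG00000027381, chromosome 2 at 128126038 to 128162547), stepped down across the groups, with 46.2, 49.0, 52.4 and 54.2 CPM in normal libraries, 31.0, 33.5, 32.3 and 32.9 in mECC and 13.3, 14.7, 13.4 and 17.4 in HPmECC. It was 1.56-fold below normal cells in mECC (log2 -0.64 ± 0.06 SE, edgeR adjusted p = 1.99e-08) and 3.42-fold below in HPmECC (log2 -1.78 ± 0.07 SE, edgeR adjusted p = 1.52e-14). Between the lines it fell 2.20-fold (log2 -1.14 ± 0.07 SE, edgeR adjusted p = 8.10e-11). Bcl2l11 and Pmaip1 were the members that differed by at least 2-fold between the lines, and both were lower in HPmECC. Pmaip1 was at log2 -0.94 without HPmECC replicate 2, which left 1 member past 2-fold, and Bcl2l11 at -0.92 on log2(TPM + 1).

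Bid (ENSMUSG00000004446, chromosome 6 at 120891930 to 120916853), which caspase-8 cleaves to link death receptors to mitochondria, held 53.7, 53.6, 51.1 and 52.6 CPM in normal libraries, 68.8, 68.4, 70.2 and 67.0 in mECC and 59.1, 59.2, 60.04 and 59.0 in HPmECC. Like Bak1 it was highest in mECC, 1.3-fold above normal cells (log2 0.38 ± 0.03 SE, edgeR adjusted p = 1.12e-09), with HPmECC 1.12-fold above normal cells (log2 0.17 ± 0.03 SE, edgeR adjusted p = 6.31e-05) and 1.16-fold below mECC (log2 -0.21 ± 0.03 SE, edgeR adjusted p = 5.01e-06). Bid shares exon bases with Bcl2l13 on the other strand, which had 7553, 11347 and 12088 counts in normal, mECC and HPmECC libraries. The strand setting of the counting is not given in the sources used here, so reads from the shared bases cannot be told apart.

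Bbc3, which encodes PUMA (ENSMUSG00000002083, chromosome 7 at 16308393 to 16318205), held 7.85, 7.22, 6.67 and 6.29 CPM in normal libraries, 4.79, 6.03, 5.91 and 5.36 in mECC and 8.95, 9.97, 8.82 and 10.2 in HPmECC. All HPmECC libraries were above the other 8. HPmECC was 1.37-fold above normal cells (log2 0.45 ± 0.10 SE, edgeR adjusted p = 2.63e-04) and 1.72-fold above mECC (log2 0.78 ± 0.09 SE, edgeR adjusted p = 6.94e-07). The 1.26-fold fall in mECC (log2 -0.33 ± 0.10 SE, edgeR adjusted p = 0.00603) was -0.09 with library totals (adjusted p = 0.416) and -0.02 from log2(TPM + 1) (adjusted p = 0.923), so neither of these called it.

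The 5 BH3-only members summed to 310 ± 7.06 TPM in normal cells, 99.7 ± 3.29 for mECC and 79.0 ± 1.54 for HPmECC. Pmaip1 supplied 75.2% ± 0.58 of that sum in normal cells, 17.9% ± 1.54 for mECC and 10.2% ± 1.45 for HPmECC, and Bid supplied 12.5% ± 0.46, 59.1% ± 1.72 and 61.8% ± 2.29. BH3-only transcripts per guardian transcript, over the 10 members, stood at 0.93 ± 0.05, 0.77 ± 0.05 and 0.76 ± 0.01 in the 3 groups.

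The transcript length implied by the files overlapped between groups for most members. The effective length implied by counts and FPKM differed by a median of 1.66% over 10557 genes in mECC against normal cells, 1.89% in HPmECC against normal cells and 1.33% in HPmECC against mECC. Groups did not overlap in length for 14.1%, 15.8% and 9.54% of these genes. Mcl1 was at 2306, 2677, 2522 and 2353 bases in normal libraries, 2760, 2902, 2774 and 2803 in mECC and 2638, 2635, 2657 and 2590 in HPmECC. The mean differed by 14% in mECC from normal cells and by -6.38% in HPmECC from mECC, without overlap in either, and GENCODE lists 2 Mcl1 transcripts of 858 and 3418 bases. Bcl2l1 differed by -6.25% in HPmECC from normal cells without overlap (1934 ± 71.5 against 2063 ± 30.7 bases). Bax differed by -0.689% in mECC and -1.05% in HPmECC from normal cells, also without overlap. Bcl2l11, which has 8 annotated transcripts, was at 3456 ± 445 bases in HPmECC and 3958 ± 198 in mECC, with overlap. Bcl2, Bak1, Bbc3, Pmaip1 and Bid overlapped in every comparison; Bik, under 1 FPKM in some libraries, was not read this way.

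Outside the family, the genes with profiles most like those of the 3 widest-ranging members were found by the distance between centred log2 CPM profiles over the 12 libraries. Pmaip1 was nearest to Wfdc2, a secreted protease-inhibitor-like protein of reproductive tract epithelium (distance 0.468; 930.5, 53.2 and 24.8 CPM in normal, mECC and HPmECC), and to P2ry2, a nucleotide receptor (0.515). Bcl2l1 was nearest to Chpt1, a phospholipid synthesis enzyme (0.281; 233.5, 41.7 and 29.4 CPM), and Rusc1 (0.296). Bik was nearest to Plcxd2 (0.902) and Zfp583 (0.93).

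Other genes of the pathway were read from lists of 59 genes, of which 53 were tested. In mECC against normal cells 21 were higher and 29 lower, 94.3% of those tested, and in HPmECC against normal cells 24 were higher and 26 lower, also 94.3%. HPmECC against mECC gave 22 higher and 19 lower, 77.4%. Over all genes tested the shares called were 86.3%, 86.4% and 68.3%, and the counts by list here and below were not tested against them. With library totals the splits were 25 higher and 24 lower in mECC, 27 and 24 in HPmECC, and 20 and 22 between the lines, so in each comparison the larger side changed. A rise larger than that of any of the 10 members was measured in Bmf, a BH3-only gene whose product is known to be released from the cytoskeleton on loss of attachment. Bmf (ENSMUSG00000040093, chromosome 2 at 118528757 to 118549687) held 3.11, 3.43, 2.86 and 3.26 CPM in normal libraries, 162, 170, 154 and 171.5 in mECC and 123, 139, 127 and 147 in HPmECC. It was 51.7-fold above normal cells in mECC (log2 5.69 ± 0.08 SE, edgeR adjusted p = 3.24e-21) and 42.2-fold above in HPmECC (log2 5.40 ± 0.08 SE, edgeR adjusted p = 7.62e-21).

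Of the 8 tested BH3-only and BH3-like genes outside the members, 3 were higher and 4 lower in mECC, and 5 were higher and 3 lower in HPmECC, than in normal cells. Over all genes tested the shares were 42.1% (higher) and 44.2% (lower) for mECC and 43% and 43.3% for HPmECC. Bad, which growth factor signals are known to silence, stood at 24.9 ± 1.46 CPM in normal cells, 47.4 ± 3.64 for mECC and 36.6 ± 1.54 for HPmECC. It shares exon bases with Gpr137 on the other strand, which had 1102, 2962 and 2438 counts against 1841, 4829 and 3582 of Bad. As for Bid, reads from the shared bases cannot be told apart. Bcl2l15 went from 232.7 ± 6.25 CPM in normal cells to 1.19 ± 0.39 in mECC and to 8 counts in HPmECC, 195-fold lower in mECC; it shares exon bases with Gm43064 on the same strand (149, 60 and 0 counts). Bnip3l, a mitophagy receptor, was 2.79-fold lower in mECC and 2.10-fold lower in HPmECC than in normal cells. Its relative Bnip3 was 2.18-fold above mECC in HPmECC (edgeR adjusted p = 1.84e-09), with HPmECC replicate 4 at 231 CPM and the other 3 HPmECC libraries at 162 to 171.

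With Bmf, Bad and Hrk added to the BH3-only members and Bcl2l2, Bcl2l10 and the Bcl2a1 genes to the guardians, the ratio between the roles turned around. BH3-only transcripts per guardian transcript then stood at 0.91 ± 0.04 in normal cells, 2.12 ± 0.13 for mECC and 2.05 ± 0.10 for HPmECC, where the 10 members alone gave lower values in the lines than in normal cells. Bmf made up 0.33% ± 0.01, 26.2% ± 0.88 and 25.7% ± 1.81 of that wider BH3-only sum and Bad 14.4% ± 0.88, 40.7% ± 1.23 and 40.8% ± 0.92. Bcl2l15 and the other BH3-like genes were not added. In the same order Bcl2l15 stood at 420 ± 11.04, 2.08 ± 0.80 and 0.23 ± 0.24 TPM. In normal cells that was above the whole wider BH3-only sum (364 ± 4.59 TPM) and above the wider guardian sum (401 ± 11.6 TPM). Adding Bcl2l15 would thus raise the normal ratio toward those of the lines and leave theirs almost unchanged. The turn therefore depends on the genes chosen, and a ratio with Bcl2l15 was not computed. With Bok added to the effectors, effector transcripts per guardian transcript were 1.28 ± 0.03, 2.42 ± 0.13 and 3.00 ± 0.06, so this ratio kept its direction.

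Further guardians were lower in the lines too. Bcl2l2, which encodes BCL-W, went from 91.4 ± 2.42 CPM in normal cells to 19.4 ± 0.31 in mECC and 18.8 ± 0.48 in HPmECC (4.71-fold and 4.88-fold lower, edgeR adjusted p = 1.59e-20 and 1.26e-20). It shares exon bases with Gm20521 on the same strand, which had 380, 117 and 137 counts. The lines did not pass the test against each other (log2 -0.05 ± 0.04 SE, edgeR adjusted p = 0.311). The near-identical Bcl2a1 genes, known mostly from leukocytes, had 15, 87 and 28 counts (Bcl2a1a, Bcl2a1b and Bcl2a1d) in normal cells and 0 in both lines; Bcl2a1b was at least 40-fold lower in mECC and at least 38.3-fold lower in HPmECC, against a floor of 3 counts over the group. Reads of these copies may be split uncertainly among them. Bok, a relative of Bax and Bak1, was 6.29-fold below normal cells in mECC and 2.38-fold below in HPmECC (107.1 ± 7.85, 17.0 ± 0.69 and 45 ± 2.35 CPM), and 2.64-fold higher in HPmECC than in mECC (edgeR adjusted p = 2.01e-13).

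**Figure D4:**
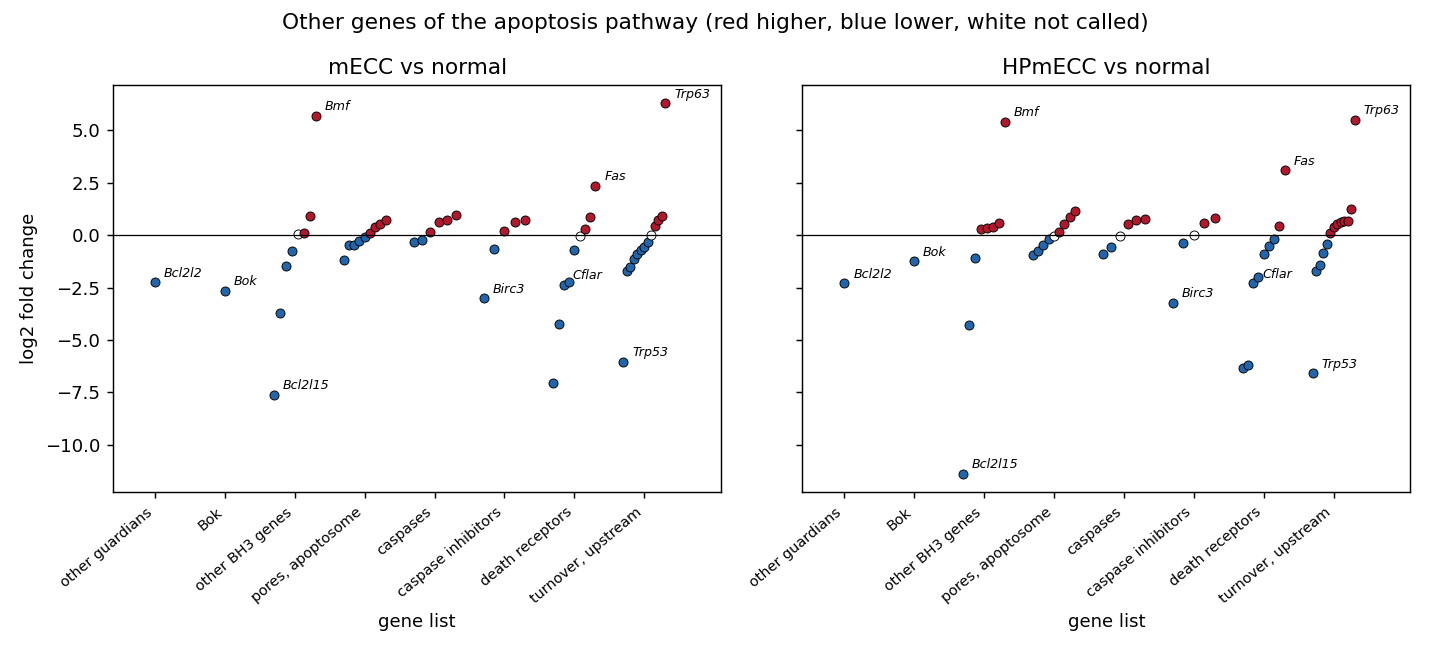
Log2 fold change of the tested pathway genes outside the 10 members, by list, against normal cells (left mECC, right HPmECC); each point is a gene (red called higher, blue called lower, white not called), and Bcl2a1b is left out because both lines had 0 counts. Bmf lies at 5.69 and 5.40, and Bcl2l2 and Bok lie below 0 in both panels.

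Downstream of the mitochondria, 4 of 6 caspases were higher and 2 lower in mECC, and 3 were higher and 2 lower in HPmECC, than in normal cells, none by 2-fold. For this and the lists that follow, the shares over all genes tested were 42.1% (higher) and 44.2% (lower) for mECC and 43% and 43.3% for HPmECC. Casp9, the initiator of the mitochondrial route, stood at 22 ± 0.96 CPM in normal cells, 33.7 ± 0.13 for mECC and 31.6 ± 1.54 for HPmECC. Of 9 genes of pores and apoptosome 4 were higher and 5 lower in mECC, and 4 were higher and 4 lower in HPmECC. Among them Vdac2, a pore known to recruit BAK, was 2.30-fold lower in mECC and Htra2, a released protease, 2.24-fold higher in HPmECC. Of 5 caspase inhibitors 3 were higher and 2 lower in mECC, and 2 and 2 in HPmECC; Birc3 (cIAP2) was 7.97-fold and 9.36-fold lower. In the death receptor arm 3 of 9 tested genes were higher and 5 lower in mECC, and 2 and 7 in HPmECC. The receptor gene Fas rose from 1.91 ± 0.26 CPM to 9.85 ± 0.60 and 16.4 ± 0.92, while Tnfrsf10b, the TRAIL receptor, was 4.65-fold and 3.94-fold lower and Cflar, the inhibitor of caspase-8, 5.15-fold and 4.86-fold lower.

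Of 13 tested genes of turnover and upstream control, 4 were higher and 8 lower in mECC, and 8 were higher and 5 lower in HPmECC, than in normal cells, beside 42.1% and 44.2% of all genes in mECC and 43% and 43.3% in HPmECC. Trp53 was 65.9-fold and 96.1-fold lower, and Mdm2, its target and inhibitor, 2.83-fold and 3.24-fold lower. Trp63, a p53 relative, had 11 counts in normal cells and stood at 11.96 ± 1.44 CPM in mECC and 6.99 ± 0.42 in HPmECC. Huwe1, a ubiquitin ligase known to act on MCL1, was 3.28-fold and 2.66-fold lower. Between the lines 8 of the 13 were higher and 4 lower in HPmECC, beside 33.8% and 34.5% of all genes, with Myc 4.48-fold higher. The textbook p53 targets among the members did not share 1 direction in HPmECC, where Pmaip1 and Bax were lower and Bbc3 was higher than in normal cells. In mECC all 3 were called lower, Bbc3 not under the settings named with its values.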

How the data were processed

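Gene-level values of 12 RNA sequencing libraries, 4 per group, were used as deposited. The submitters' processing notes name Trim Galore, STAR 2.6.1a, RSEM 1.3.1 and build GRCm38; neither annotation release nor strand setting is stated in these sources. The deposited expected counts (RSEM, whole numbers in the table) were tested. The deposited TPM, scaled by the authors to length and a fixed sum, gave levels and ratios between genes. The deposited FPKM gave the implied effective length, as counts over FPKM and the library's summed counts, for genes of at least 1 FPKM in each library. Symbols matched 55144 of 55385 identifiers. Coordinates come from GENCODE M21 and promoters from RefSeq, both on GRCm38.

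edgeR 4.0.16 in R 4.3.3 fitted 1 coefficient per group over all 12 libraries (TMM factors, filterByExpr with a minimum of 10 counts, quasi-likelihood test, Benjamini-Hochberg over 15283 genes, threshold 0.05). SE came from the F statistic. The biological coefficient of variation was 4.27%. The test was run on simulated data first. DESeq2 1.42.0 and limma 3.58.1 served as alternatives. Counting floors cover counting error only.

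The members, lists, tests and alternatives were chosen with earlier results of these data known. Named from the lists were up to 4 called genes per list and comparison with a change of at least 2-fold and 5 CPM; Trp53, Myc and Mdm2; and the 2 genes nearest to each of the 3 widest-ranging members. Bad, Casp9, Bcl2a1a, Bcl2a1b, Bcl2a1d, Epcam, Cdh1, Krt8, Krt18, Krt19, Cd14, Flt1, Col1a2, Dcn, Lum and Thy1 were named after their values were seen. Sequences of Pmaip1 and Bik are not reported here.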

Additional observations from a re-analysis of the deposited data

Results flagged for a closer look

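Of the 30 sets of 4 libraries (10 members in 3 groups), 2 had a library far from the other 3, and chance flags about 1 set in 20. Bax in normal replicate 4 was at 137 CPM, with the other normal libraries at 128 to 130 CPM. Bid in HPmECC replicate 3 was at 60.04 CPM, with the others at 59.0 to 59.2 CPM. Both stayed on the same side of every group they were compared with.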

How the results depend on the processing

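The settings tried were library totals, median-of-ratios factors, no filter, at least 10 CPM in 4 libraries, DESeq2, limma on log2(TPM + 1) and log2(TPM + 0.1), only the 2 groups compared, replicates 1 and 2 against 3 and 4 as a batch, a replicate block, and each library left out. Of the members' fold changes under them, 522 kept direction and side of the threshold, 9 lost the call and 3 reversed. The reversals were all Bcl2 in mECC against normal cells, never called: 0.132 with library totals, 0.0952 on log2(TPM + 1) and 0.118 on log2(TPM + 0.1). The lost calls were Bax, Mcl1 and Bik between the lines and Bbc3 in mECC against normal cells; the cause was not tested. At least 10 CPM in 4 libraries left 8 members tested between the lines and 1 called higher, since Bbc3 and Bik dropped out. With each library left out, members called higher in HPmECC against mECC ranged from 2 to 3 and lower stayed at 7. Whether the numbers in the titles pair libraries is not stated. Same-numbered libraries correlated at -0.0273 to 0.08, 0 of 12 pairs above 0.1, and the 36 other pairs at -0.0484 to 0.0427. Of the 12 libraries, 6 correlated best with their own number. The correlations were weak, and pairing itself was not tested. With the replicate block, members called stayed at 3 higher and 7 lower between the lines, 2 and 7 in mECC and 3 and 7 in HPmECC against normal cells, and all genes called between the lines were 10321 in place of 10440. The block changed no call of a member. Depth limits Bik most, with 35 counts in mECC.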
